A study of Mus musculus with 6 samples.

Results

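The genes described here are the 5 NF-κB subunits Nfkb1, Nfkb2, Rela, Relb and Rel and 5 of their regulators. The regulators are Tnfaip3 and the IκB family genes Nfkbia, Nfkbie, Nfkbiz and Bcl3. All were taken by gene symbol, 10 of the 21720 genes in the table. All 10 passed the filter on low counts with which 14963 genes were tested. The libraries were RNA-seq libraries of subcutaneous tumours of H22, a mouse hepatocellular carcinoma line, in wild-type female BALB/c mice aged 6 to 8 weeks. The control group (3 libraries) received the vehicle, 0.5% carboxymethyl cellulose sodium, and the luteolin group (3 libraries) received luteolin, a plant flavonoid, at 200 mg/kg. Both groups were gavaged daily with 0.2 mL for 21 days, begun once tumours had reached about 50 mm3. The labels do not say whether each library came from a separate mouse, so the p-values measure the spread between these libraries, which may be technical in part.

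NF-κB is a family of dimeric transcription factors that switches on inflammatory, survival and immune genes. In resting cells IκB proteins hold the dimers in the cytoplasm. Signals from cytokine and Toll-like receptors activate the IκB kinase complex, the IκB proteins are degraded, and the freed dimers enter the nucleus. Many of the genes they induce are inhibitors of the same pathway, so transcripts such as Nfkbia and Tnfaip3 are often read as products of NF-κB activity, while most activation of the subunits themselves takes place in the protein and is not seen in RNA.

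The sequences before the transcript starts of the genes with most bearing on the results are printed here, since NF-κB induces several of its own genes through sites of this kind. The 250 bases before each transcript start were read from RefSeq promoter sequences of the mouse build GRCm38.p6 and searched on both strands for the κB consensus, the 10-base pattern bound by NF-κB dimers, with overlapping matches counted. The submitters' processing notes name a different mouse build, mm39. A promoter entry was found for 7 members, with 10 starts in all, while Nfkb1, Relb and Nfkbiz had none. A match occurred in 5 of these 7 genes (71.43%), against 2225 of 27025 genes with an entry (8.23%). By promoter, the match was present in 7 of 10 (70.0%), against 7.25% of 32851. Capitals mark the matched bases, and Bcl3, which has no match in this window, is shown because it was one of the genes higher in the luteolin group. The windows are Tnfaip3 start 2 at chr10:19015411-19015660 on the minus strand, Nfkbia at chr12:55492648-55492897 on the minus strand, Nfkb2 start 1 at chr19:46304487-46304736 on the plus strand, Rel at chr11:23770970-23771219 on the minus strand and Bcl3 at chr7:19822756-19823005 on the minus strand. Each is written 5′ to 3′ along its gene and ends at the base before the start.
Tnfaip3 start 2: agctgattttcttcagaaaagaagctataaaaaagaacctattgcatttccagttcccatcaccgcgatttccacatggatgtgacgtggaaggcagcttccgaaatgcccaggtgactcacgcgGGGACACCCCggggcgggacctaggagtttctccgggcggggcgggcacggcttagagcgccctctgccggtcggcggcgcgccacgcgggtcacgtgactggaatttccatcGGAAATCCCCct
Nfkbia: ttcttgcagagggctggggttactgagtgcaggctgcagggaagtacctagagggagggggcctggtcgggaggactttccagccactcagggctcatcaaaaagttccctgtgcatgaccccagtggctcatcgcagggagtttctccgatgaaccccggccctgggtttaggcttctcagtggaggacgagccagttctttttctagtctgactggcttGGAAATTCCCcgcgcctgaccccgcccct
Nfkb2 start 1: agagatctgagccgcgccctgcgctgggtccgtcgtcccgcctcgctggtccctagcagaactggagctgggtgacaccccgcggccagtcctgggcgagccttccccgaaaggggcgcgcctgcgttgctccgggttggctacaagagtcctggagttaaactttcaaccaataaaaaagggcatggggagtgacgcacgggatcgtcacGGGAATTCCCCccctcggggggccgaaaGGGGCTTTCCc
Rel: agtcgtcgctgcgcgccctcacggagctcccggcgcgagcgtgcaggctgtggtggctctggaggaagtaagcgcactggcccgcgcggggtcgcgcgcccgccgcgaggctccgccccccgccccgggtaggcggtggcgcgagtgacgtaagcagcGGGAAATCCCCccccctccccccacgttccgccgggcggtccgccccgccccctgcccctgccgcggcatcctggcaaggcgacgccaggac
Bcl3: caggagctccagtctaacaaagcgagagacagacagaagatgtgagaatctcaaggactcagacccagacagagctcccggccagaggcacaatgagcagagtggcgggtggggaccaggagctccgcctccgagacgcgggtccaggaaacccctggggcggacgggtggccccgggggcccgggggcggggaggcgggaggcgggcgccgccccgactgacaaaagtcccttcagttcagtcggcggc

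The matches lay at different distances from the starts. In Tnfaip3 start 2 they covered bases -125 to -116, on both strands, and -12 to -3. In Nfkbia the match lay at -29 to -20, and in Nfkbie, the gene of IκBε, at -106 to -97. Nfkb2 had matches before each of its 3 starts, with 3 overlapping or nearby positions at start 1, and Rel had them from -92 to -82. Rela, Bcl3 and Tnfaip3 start 1 had no match in the window searched. A match is a description of the letters and no evidence of binding in these tumours, and no match says only that these letters are not in this window. The match was present in 9 of 19 NF-κB target genes with an entry (47.37%) and in 1 of 9 genes of the IκB kinase complex and its upstream kinases (11.11%), a description with no test.

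**Figure D1:**
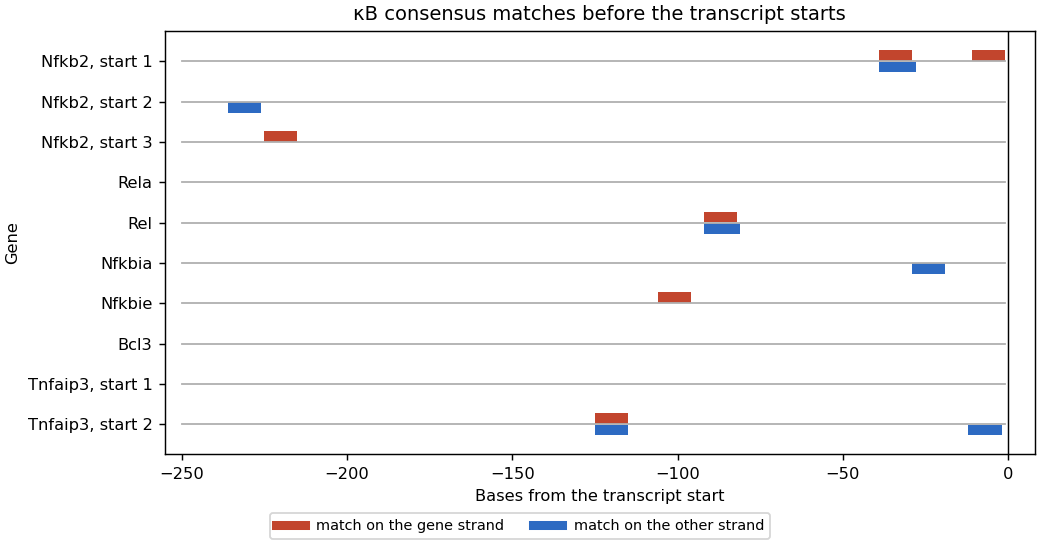
Positions of κB consensus matches in the 250 bases before the transcript starts of 7 genes (x axis, bases from the start; y axis, gene and start), with matches on the gene strand in red above each line and matches on the other strand in blue below it. Matches appear in 7 of the 10 windows, and those of Nfkb2 start 1, Nfkbia and one of Tnfaip3 start 2 lie within 40 bases of the start.

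Total counts ranged from 61081637 to 80442954 per library. The values are estimated counts, and 44.8% of the low values (1 to 40) were multiples of 4, so that 1 unit need not be 1 read pair. Luteolin replicate 2 had the largest total and stood apart from the other libraries. It had 16767 genes above 0, against 15579 to 16012 in the others, and the part of its depth in this was not tested. Its summed keratinocyte markers reached 9368 CPM, against 406 and 23.3 CPM in luteolin replicates 1 and 3 and 15.9 to 20.3 CPM in the controls. Krt14, Krt5, Krt1, Krt15, Dsg3 and Krtdap were at 0 in every control. The hepatoma label comes from the cell line, and the hepatocyte and hepatoma markers differed widely in level. Trf, the most abundant, was at 294 to 347 CPM in the controls and 122 to 283 CPM in the luteolin group. Ttr, Apoa1, Apoh and Fgb reached at most 3.31 CPM in any library. Afp was at 43.4 to 66.7 CPM in the controls and 32.7 to 41.8 CPM in the luteolin group, Alb ranged from 0.868 to 133 CPM over the 6 libraries, and Hnf4a did not pass the filter. CPM are counts scaled by the TMM-normalized total of the library.

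Of the 10 genes, 2 were up-regulated in the luteolin group at the threshold of the study, an unadjusted p under 0.05 with more than a 2-fold change: Tnfaip3 and Bcl3. None was down-regulated. Among all genes tested, 11.3% were higher and 1.52% lower at this threshold. With Benjamini-Hochberg adjustment of the edgeR quasi-likelihood p-values, 1 of 10 was higher (Tnfaip3) and 0 lower at an adjusted p under 0.05, against 1.34% higher and 0.187% lower among all genes. At an unadjusted p under 0.05 alone, 3 were higher (Nfkbiz as well) and 0 lower, against 14% and 6.44% of all genes. By DESeq2 2 of the 10 were higher at an adjusted p under 0.05 and 0 lower, against 9.59% and 2.58% of the genes given an adjusted p. By limma's voom 3 were higher and 0 lower, against 12.6% and 8.76% of all genes. The fold change was positive in 10 of 10, against 7383 of the 14963 genes tested, though the sign of Rela, Nfkb2 and Nfkbie reversed under some alternatives. The median log2 fold change was 0.32, against -0.01 over all genes tested. All 3 luteolin libraries lay above every control for 4 of the 10 (Nfkb1, Nfkbiz, Bcl3 and Tnfaip3), and 0 of 10 lay below every control, against 15.9% and 12.8% of all genes. These are bulk tumours, so a change in the number of cells that express a gene and a change in RNA per cell cannot be told apart.

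**Figure D2:**
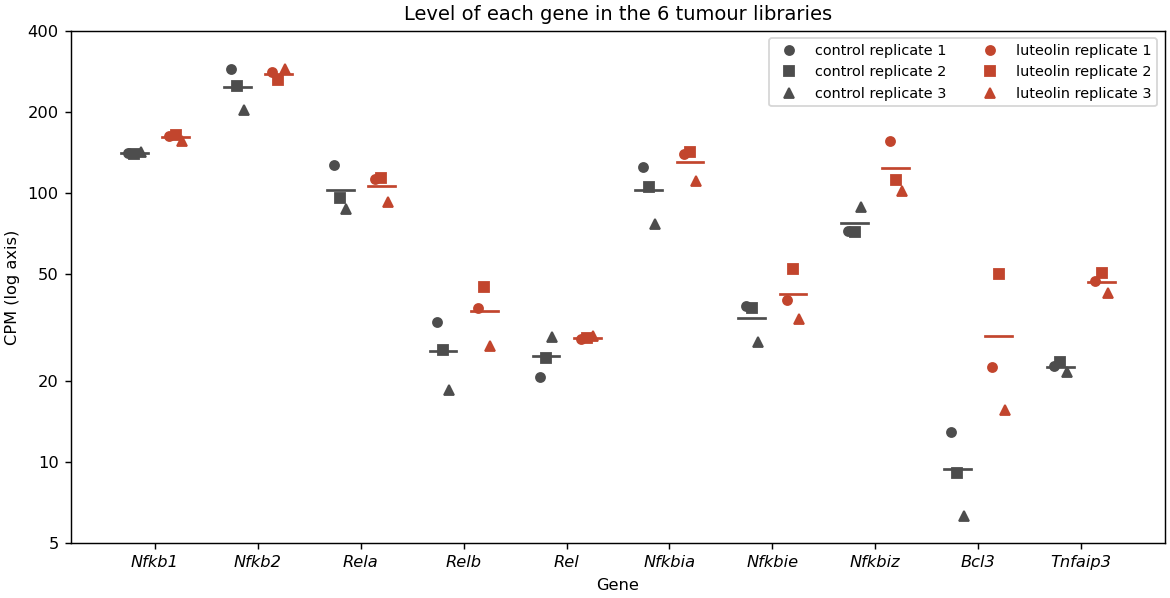
Level of each of the 10 genes in CPM (y axis, log scale) in the 6 libraries, with controls in grey and luteolin in red, a symbol for each replicate and a line at each group mean. The groups are separate for Nfkb1, Nfkbiz, Bcl3 and Tnfaip3 and overlap for the other 6 genes, and Bcl3 is highest in luteolin replicate 2 at 50.0 CPM.

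None of the canonical subunits passed the test. Rela encodes p65, the transactivating partner of the canonical dimer. It was at 127, 95.5 and 86.9 CPM in the controls (replicates 1, 2 and 3, in this order throughout) and at 113, 113 and 92.7 CPM in the luteolin group. The highest library was a control and the groups overlapped. Its log2 fold change was 0.04 (95% confidence interval -0.40 to 0.49) with an adjusted p of 0.931 in edgeR. Nfkb1 encodes p105, which is processed to p50, the DNA-binding partner of p65. Its controls were at 141, 140 and 142 CPM and its luteolin libraries at 163, 165 and 156 CPM. The groups did not overlap, and the means of 141 ± 1.13 and 161 ± 4.75 CPM (SD, n = 3 each) differed by a log2 fold change of 0.20 (-0.09 to 0.48). The adjusted p of edgeR was 0.426, so that the difference did not pass the test. Rel encodes c-Rel, a subunit prominent in lymphoid and myeloid cells, and had the lowest control mean per kb of the 10 genes. It was at 20.6, 24.3 and 29.2 CPM in the controls and at 28.7, 28.9 and 29.4 CPM in the luteolin group. The luteolin libraries were close together (SD 0.354 CPM) and only 1 of them lay above every control. The log2 fold change of 0.23 (-0.21 to 0.67) had an adjusted p of 0.551 in edgeR.

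The subunits of the non-canonical pathway had higher means in the luteolin group and did not pass the test. Nfkb2 encodes p100, which holds RelB in the cytoplasm until it is processed to p52. It was at 289, 251 and 203 CPM in the controls and at 283, 263 and 290 CPM in the luteolin group. Control replicate 1 lay within the range of the luteolin libraries, and the log2 fold change was 0.17 (-0.22 to 0.56) with an adjusted p of 0.631 in edgeR. Relb encodes the partner of p52. It was at 33.1, 26.1 and 18.5 CPM in the controls and at 37.2, 44.8 and 26.9 CPM in the luteolin group. Luteolin replicates 1 and 2 lay above every control and replicate 3 within their range. The means of 25.9 ± 7.31 and 36.3 ± 8.97 CPM gave a log2 fold change of 0.49 (-0.18 to 1.16) with an adjusted p of 0.393 in edgeR.

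Per kilobase of the longest transcript, the order of the control means was Nfkbia (64.8 CPM per kb), Nfkb2 (64.4), Rela (37.9), Nfkb1 (34.0), Nfkbiz (18.9), Nfkbie (11.4), Relb (7.91), Bcl3 (5.09), Tnfaip3 (3.64) and Rel (3.31). Neighbours in this order overlapped over the control libraries in all but 3 places. Nfkb2 (52.9 to 75.2) lay apart from Rela (32.0 to 46.7), and Nfkbiz (17.4 to 21.6) from both Nfkb1 above it and Nfkbie below it. In the luteolin group Bcl3 had a mean of 15.9 CPM per kb, above Nfkbie at 13.98 and Relb at 11.1, but its libraries (8.42 to 27.0) overlapped those of both. Tnfaip3 was at 7.50 CPM per kb, and its libraries (6.82 to 8.10) lay above those of Rel (3.84 to 3.93), which the controls of Tnfaip3 (3.47 to 3.78) and Rel (2.76 to 3.92) did not. Of the subunits, Nfkb2 took 43.5% of the summed subunit level per kb in the controls and 43.8% in the luteolin group, Rela 25.6% and 23.6%, Nfkb1 23.3% and 23.5%, Relb 5.29% and 6.68% and Rel 2.31% and 2.35%. The groups overlapped for the share of each of the 5 subunits.

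The classical inhibitors were next. Nfkbia encodes IκBα, which binds p65-containing dimers and is resynthesized soon after NF-κB is activated. It was at 125, 105 and 76.6 CPM in the controls and at 140, 142 and 111 CPM in the luteolin group. Luteolin replicates 1 and 2 lay above every control, and replicate 3 lay below control replicate 1. The means of 102.3 ± 24.5 and 131 ± 17.7 CPM gave a log2 fold change of 0.36 (-0.16 to 0.87), with an adjusted p of 0.412 in edgeR. Nfkbie encodes IκBε, a slower member of the same family. Its controls were at 38.0, 37.2 and 28.0 CPM and its luteolin libraries at 39.98, 52.15 and 33.95 CPM. The groups overlapped, and the log2 fold change of 0.29 (-0.24 to 0.82) had an adjusted p of 0.524 in edgeR.

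The nuclear IκB proteins bind NF-κB dimers on DNA and modulate transcription, unlike the classical ones. Nfkbiz encodes IκBζ, which is needed for a subset of secondary response genes such as Il6 in macrophages. It was at 72.4, 71.4 and 88.9 CPM in the controls and at 157, 112 and 102.1 CPM in the luteolin group. All luteolin libraries lay above every control, and replicate 1 was the highest. The means of 77.6 ± 9.83 and 123.6 ± 29.1 CPM differed 1.59-fold, under the 2-fold limit of the study, with a log2 fold change of 0.67 (0.18 to 1.16) and an adjusted p of 0.146 in edgeR. The unadjusted p of Nfkbiz was no longer under 0.05 without control replicate 1, control replicate 2 or luteolin replicate 1, where the log2 fold change was 0.60, 0.61 and 0.46. Bcl3 encodes a nuclear IκB that binds p50 and p52 homodimers. It was at 12.9, 9.07 and 6.27 CPM in the controls and at 22.6, 50.0 and 15.6 CPM in the luteolin group, so that the groups did not overlap. The means of 9.42 ± 3.35 and 29.4 ± 18.2 CPM gave the largest fold change of the 10 genes, 3.12-fold (log2 fold change 1.64, 0.49 to 2.80). The adjusted p of 0.138 in edgeR did not pass the test, and in this fit the change passed only the threshold of the study. By DESeq2 and voom, which called a larger share of all genes, the adjusted p of Bcl3 was 0.00990 and 0.0155. Without luteolin replicate 2 the log2 fold change of Bcl3 was 1.03, just past that threshold. The summed keratinocyte markers were also highest in that library, as given above. So were the summed markers of leukocytes, T cells, B cells, macrophages and monocytes, neutrophils, dendritic cells, endothelium and fibroblasts, given below. The part of any of these cells in the level of Bcl3 was not tested.

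Tnfaip3 encodes A20, a ubiquitin-editing enzyme that ends signalling from TNF and Toll-like receptors and is itself induced by NF-κB. It was at 22.7, 23.4 and 21.5 CPM in the controls and at 46.9, 50.2 and 42.3 CPM in the luteolin group. The lowest luteolin library lay far above the highest control, and the spread within each group was small beside the distance between them. The means of 22.6 ± 0.964 and 46.5 ± 3.99 CPM differed 2.06-fold, a log2 fold change of 1.04 ± 0.16 (SE, 0.67 to 1.41). The adjusted p was 0.0393 in edgeR, and the p ranked 106 of 14963. The log2 fold change stayed between 1.00 and 1.06 when each library was left out in turn. The adjusted p rose to between 0.0574 and 0.214 without any 1 of the 3 controls, luteolin replicate 1 or luteolin replicate 3, and was 0.0394 without luteolin replicate 2. Without any 1 of the controls or luteolin replicate 1, none of the genes tested by edgeR had an adjusted p under 0.05, and without luteolin replicate 3 0.993% were higher at this threshold. Over the 18 alternatives the adjusted p of Tnfaip3 ranged from 2.49e-08 to 0.214.

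**Figure D3:**
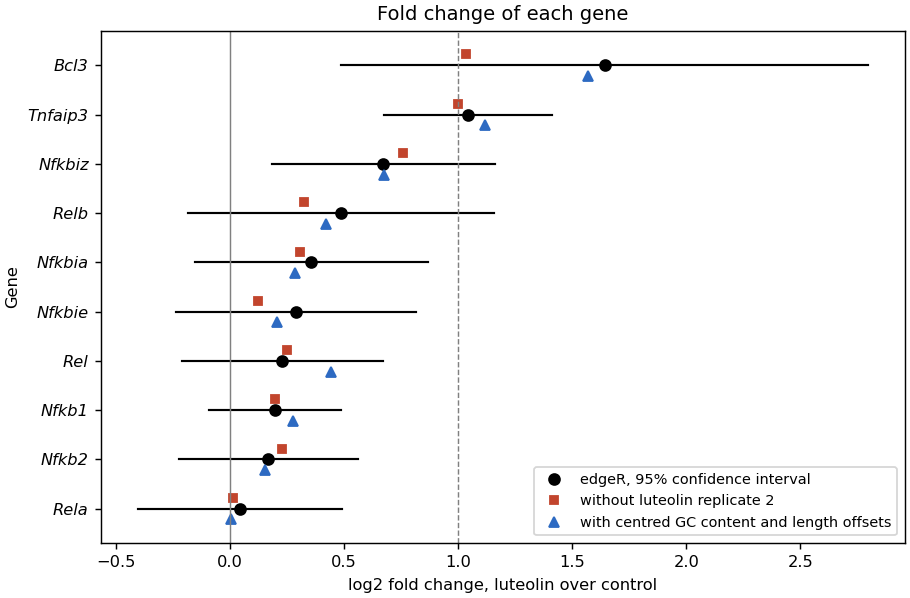
Log2 fold change of each gene (x axis, luteolin over control; y axis, genes in order of fold change) with 95% confidence intervals of edgeR as black lines, the value without luteolin replicate 2 as red squares and the value with centred GC content and length offsets as blue triangles. The dashed line is a 2-fold change. Only the intervals of Nfkbiz, Bcl3 and Tnfaip3 lie above 0, and the value of Bcl3 falls from 1.64 to 1.03 without luteolin replicate 2.

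Ratios between the genes were compared within each library, with no test, as 7 ratios of levels per kb chosen with these counts in view. The ratio of Nfkbia to Rela was 1.70, 1.89 and 1.52 in the controls and 2.13, 2.16 and 2.05 in the luteolin group. The ratio of Relb to Rela was 0.216, 0.227 and 0.176 against 0.274, 0.328 and 0.241. The ratio of Tnfaip3 to Nfkbia was 0.0462, 0.0568 and 0.0716 against 0.0854, 0.0898 and 0.0974. The luteolin libraries lay above every control in all of these, and also for Bcl3 to Nfkb2 (0.0640 to 0.0930 against 0.112 to 0.396) and Nfkbiz to Nfkb1 (0.515 to 0.632 against 0.659 to 0.968). Nfkb2 to Nfkb1 and Rel to Rela overlapped. The groups were thus separate in 5 of 7 ratios. The share for ratios of other genes was not computed, and the numerators Tnfaip3, Bcl3 and Nfkbiz were separate between the groups by themselves. The groups were separate in 3 of 7 ratios (Relb to Rela, Tnfaip3 to Nfkbia and Bcl3 to Nfkb2) once levels were adjusted for GC content and length. With that adjustment the ratio of Nfkbia to Rela was 1.98, 1.82 and 1.39 in the controls and 2.07, 2.35 and 1.91 in the luteolin group.

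The spread of the controls went with the base composition of the transcripts. The deviation of a gene from its mean over the libraries was related to GC content, over all genes with a known GC content, with Spearman rho of 0.42, -0.17 and -0.52 in the controls and -0.18, 0.43 and -0.36 in the luteolin group. Of the 10 genes, 6 have a GC content above the 60th percentile (Nfkb2, Rela, Relb, Nfkbia, Nfkbie and Bcl3). In 6 of 6, control replicate 1 was the highest and control replicate 3 the lowest of the controls. The cut falls between Nfkbiz (percentile 50.7) and Nfkbia (65.5), and the share of all genes above it with this order was not computed. In the other 4 genes control replicate 3 was lowest in 1 and control replicate 1 highest in 0. After offsets for GC content and length, the SD of the controls fell from 21.1 to 3.54 CPM for Rela, while for Nfkb1 it rose from 1.13 to 25.6 CPM. It also fell for Nfkb2, Relb, Rel, Nfkbia, Nfkbie and Bcl3 and rose for Nfkbiz and Tnfaip3. In the adjusted levels of Tnfaip3 the SD was 2.95 CPM in the controls and 10.1 CPM in the luteolin group, against 0.964 and 3.99 CPM before. With these levels all luteolin libraries lay above every control for Relb, Nfkbiz, Bcl3 and Tnfaip3, so Nfkb1 was no longer among the genes without overlap, and the share of all genes was 18.4%. The log2 fold change with the same offsets was 1.12 for Tnfaip3 and 1.57 for Bcl3, with adjusted p-values of 0.0273 and 0.0332 in edgeR, 2 of 10 genes at an adjusted p under 0.05. In that fit 4.35% of all genes were higher at an adjusted p under 0.05, against 1.34% without offsets. The adjusted p of Bcl3 over its 18 alternatives ranged from 0.00990 to 0.381. Whether GC content is the cause of the spread was not tested.

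**Figure D4:**
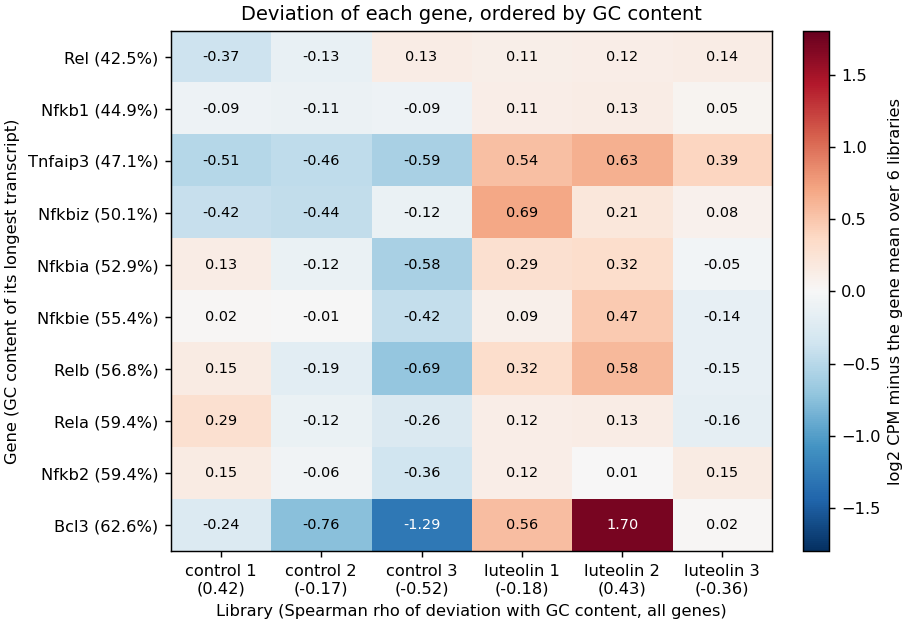
Deviation of each gene from its mean over 6 libraries in log2 CPM (colour and numbers), with genes from low to high GC content on the y axis and libraries on the x axis, each with its Spearman rho of deviation with GC content over all genes. From Nfkbia (52.9% GC) to Bcl3 (62.6%), control replicate 3 is the lowest of the controls, while Tnfaip3 is low in all controls and high in all luteolin libraries.

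The other genes of the pathway were counted in lists by role, with no test. Beside these counts, 11.3% of all genes tested were higher and 1.52% lower at the threshold of the study. With each library left out, the share of all genes higher was 7.52% to 13.6%. Among the remaining IκB genes, Nfkbid, a nuclear IκB induced in lymphocytes, was at 2.318, 1.035 and 1.752 CPM in the controls and at 6.69, 9.02 and 4.88 CPM in the luteolin group, with a log2 fold change of 2.01 and an adjusted p of 0.0810 in edgeR. Nfkbib, the gene of IκBβ, had a log2 fold change of 0.27. Of the 12 genes of the IκB kinase complex and its upstream kinases, 1 was higher and 0 lower at the threshold of the study (median log2 fold change -0.18). That gene was Map3k8, the kinase TPL2, with a log2 fold change of 1.11, while the most abundant one, Tab2, was at 0.07. Of 12 TRAF, cIAP and CBM adaptors 2 were higher and 0 lower (median 0.16), with Traf3, a brake on the non-canonical pathway, at 1.58 and Traf1, the most abundant, at 0.05. Of 14 other negative regulators 2 were higher and 0 lower (median 0.12). Zc3h12a, the RNase Regnase-1, had a log2 fold change of 1.30, and Otud7b, a deubiquitinase of TRAF3, of -0.83. The adjusted p of Traf3 was 0.0862 in edgeR. Without control replicate 1, control replicate 3 or luteolin replicate 2 the kinase count was 0. The adaptor count was 1 without control replicate 2, control replicate 3 or luteolin replicate 2. The count of other negative regulators was 1 without any 1 library but control replicate 3.

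The ligand, receptor and target lists held more genes at the threshold, again beside 11.3% higher and 1.52% lower among all genes tested. At an adjusted p under 0.05 in edgeR, 1.34% of all genes tested were higher. Of 18 canonical ligands, receptors and adaptors, 9 were higher at the threshold of the study and 0 lower (median 0.92), and 2 had an adjusted p under 0.05 in edgeR. Il1b, an inflammatory cytokine that both activates NF-κB and is induced by it, was at 14.5, 16.8 and 11.1 CPM in the controls and at 165, 122 and 57.5 CPM in the luteolin group, with a log2 fold change of 3.02. The other was Il18r1, named after its value was seen. Tnfrsf1a, the TNF receptor and the most abundant of the list, had a log2 fold change of 0.83. Of 10 non-canonical ligands and receptors tested, 7 were higher and 0 lower (median 1.69), and 1 had an adjusted p under 0.05. That was Cd40, a receptor of antigen-presenting cells that signals to Nfkb2 and Relb, at 4.45, 5.41 and 5.33 CPM in the controls and 19.95, 23.3 and 15.4 CPM in the luteolin group. Tnfrsf12a, the most abundant, was at -0.05 on the log2 scale. Of 28 NF-κB target genes, 14 were higher and 0 lower (median 1.12, positive in 27), and 4 had an adjusted p under 0.05. Ccl5, a chemokine for T cells and monocytes, had the smallest p, with a log2 fold change of 3.05. The other genes (Nos2, Saa3 and Cxcl2) and the only target gene with a negative fold change, Il23a at -0.84, were named after their values were seen. Cflar, the most abundant, was at 0.00. The median of 0.32 over the 10 genes lay below those of the ligand, receptor and target lists. Members and lists were chosen with earlier results of these data known, so this order is a description with no test.

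**Figure D5:**
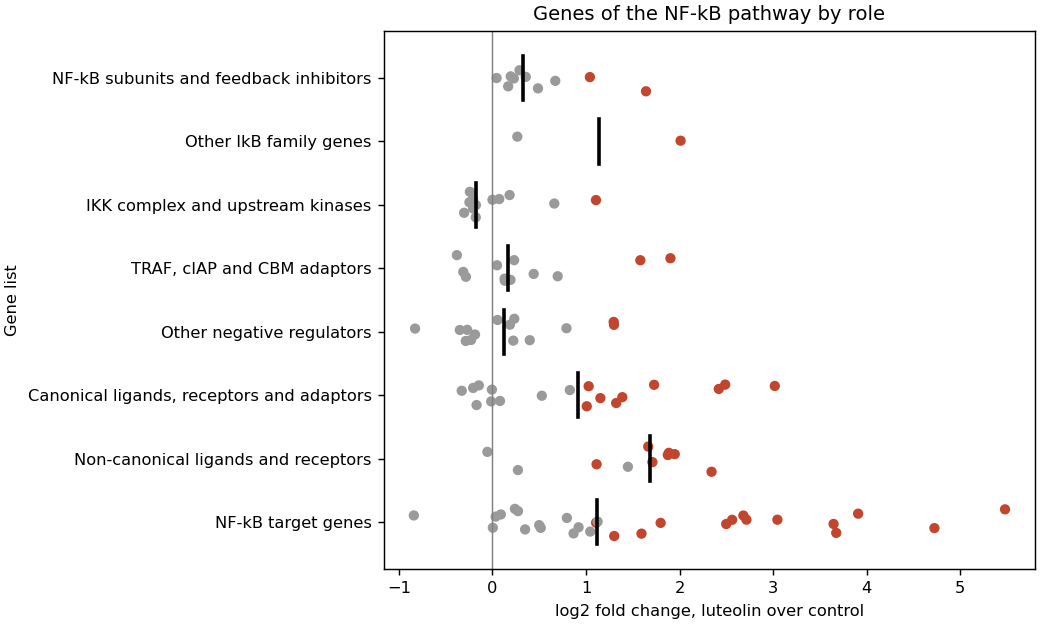
Log2 fold change (x axis, luteolin over control) of each tested gene in 8 lists of the NF-κB pathway (y axis), with genes at the threshold of the study in red, the others in grey and the list median as a black bar. The 10 subunits and feedback inhibitors have a median of 0.32, the kinase list of -0.18 and the target genes of 1.12.

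The summed marker lists of other cells did not overlap between the groups, except the dendritic cell and endothelium lists, which did. Beside the counts below, 11.3% of all genes tested were higher at the threshold of the study. With each library left out this share was 7.52% to 13.6%. The summed pan-leukocyte list was at 1030 to 1074 CPM in the controls and 1196 to 1363 CPM in the luteolin group, with 4 of 8 genes higher at the threshold of the study, and the T cell list at 12.5 to 15.4 and 43.7 to 85.0 CPM (8 of 8). The macrophage and monocyte list was at 1007 to 1139 and 1667 to 2347 CPM (3 of 10), the neutrophil list at 19.0 to 22.4 and 81.3 to 182 CPM (5 of 7 tested, with Camp at 0 in every control), the dendritic cell list at 47.4 to 57.5 and 49.7 to 127 CPM (6 of 8) and the B cell list at 11.6 to 13.6 and 14.3 to 39.1 CPM (2 of 6). The fibroblast list was at 862 to 1067 and 1434 to 3384 CPM (5 of 7), the endothelium list was at 86.1 to 107 and 100.3 to 265 CPM (2 of 6) and the hepatocyte and hepatoma list at 367 to 425 and 195 to 356 CPM (0 of 7). The most abundant genes of these lists had log2 fold changes of -0.26 (Lcp1), 1.63 (Cd4), 0.80 (C1qa), 2.25 (Csf3r), -0.33 (Zbtb46), 0.75 (Cd22), 1.41 (Col1a1), 1.05 (Pecam1) and -0.86 (Trf), and Krt14 was at 157, 2439 and 4.33 CPM in the luteolin group. Without luteolin replicate 2 the counts were 1 for the pan-leukocyte, 1 for the B cell and 0 for the endothelium list. They were 5 for the macrophage and monocyte and 4 for the B cell list without luteolin replicate 1, 3 for the dendritic cell list without control replicate 1, 5 for the hepatocyte and hepatoma list without control replicate 2, 1 for the B cell list without control replicate 1, control replicate 3 or luteolin replicate 3, and 1 for the endothelium list without control replicate 1 or 2.

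The levels of the 10 genes were also set against these lists. As a log2 ratio to the summed pan-leukocyte list within each library, the difference of luteolin and control means was 1.27 for Bcl3, 0.78 for Tnfaip3, 0.40 for Nfkbiz, 0.24 for Relb and 0.12 for Nfkbia. It was 0.02 for Nfkbie and between -0.20 and -0.02 for Rel, Nfkb1, Nfkb2 and Rela. The ratio of Tnfaip3 to the list did not overlap between the groups, at -5.64 to -5.49 in the controls and -4.85 to -4.67 in the luteolin group. That of Bcl3 did not overlap either, by a narrow margin (-7.421 to -6.315 against -6.295 to -4.769). The share of all genes without overlap in such a ratio was not computed. Lcp1 made up much of the summed list and had a lower mean in the luteolin group. Without it the difference was 0.94 for Bcl3, 0.46 for Tnfaip3 and 0.07 for Nfkbiz, and the other 7 genes were between -0.53 and -0.09. Itgb2, named after its value was seen, stayed in this list, with means of 339 CPM in the controls and 329 CPM in the luteolin group. The summed list without Lcp1 had means of 566 and 854 CPM, and a list without both genes was not tried. These differences therefore depend on the genes summed. Relative to the macrophage and monocyte list, Bcl3 was higher by 0.68 and Tnfaip3 by 0.19, while the differences of the other 8 genes were negative, from -0.79 for Rela to -0.19 for Nfkbiz. Tnfaip3 and this list were at 23.4 and 1007 CPM in control replicate 2 and at 50.2 and 2347 CPM in luteolin replicate 2. The groups thus overlapped in the ratio of Tnfaip3 to this list. The part of leukocyte number in these levels was not tested.

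The 5 tested genes whose pattern over the 6 libraries was most like that of Tnfaip3 were Eml1, Sirpa, Cndp2, Fbn1 and Emilin2, by the root mean square difference of centred log2 CPM (0.069, 0.077, 0.088, 0.089 and 0.094). They were picked by this likeness, so log2 fold changes near that of Tnfaip3 (0.97 to 1.12) follow from the choice. Eml1 was at 11.5, 11.8 and 12.2 CPM in the controls and at 23.3, 25.3 and 20.7 CPM in the luteolin group. Sirpa, the myeloid receptor for CD47, was at 45.7, 41.2 and 42.9 CPM in the controls and at 91.1, 100.2 and 88.2 CPM in the luteolin group. The levels of Fbn1, a fibrillin of connective tissue, were 87.5, 90.0 and 90.2 CPM and 162, 205 and 165 CPM.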

How the data were processed

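The authors deposited 1 table of estimated counts, whole numbers per gene symbol and library with no scaling between libraries. The submitters' processing notes name bcl2fastq 2.0, HISAT2, StringTie and DESeq2 and the builds rn6 and mm39, without roles, and the annotation is not given in the sources used here. All 6 libraries were used and 0 columns left out. Genes passing filterByExpr were tested in R 4.3.3 with edgeR 4.0.16 (TMM, quasi-likelihood, no covariates). Two-sided p-values were adjusted by Benjamini-Hochberg over all 14963 genes, and SE was the absolute log2 fold change over the square root of F. Transcript length and GC content came from GENCODE M21. The named genes were all 10 members, the smallest-p and most abundant gene of each pathway list, the most abundant gene of each cell list and the 5 genes most like the member with the smallest p. Members and lists were chosen with earlier results of these data known. Alternatives were DESeq2 1.42.0, voom (limma 3.58.1), RLE and upper-quartile normalization, other filters, counts divided by 4, a replicate block, GC content and length offsets and each library left out. The pipeline was tested on simulated data.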

Additional observations from a re-analysis of the deposited data

How the results depend on the processing

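The count of genes higher at the threshold of the study was 2 and fell to 1 under voom, GC content and length offsets, and these offsets with the replicate block (11.7%, 9.48% and 8.68% of all genes). At an adjusted p under 0.05 the count was 1 (1.34% of all genes higher), and it was 2 by DESeq2 (9.59%), 3 by voom (12.6%), 0 with the replicate block (0.227%), 2 with GC offsets (3.81%), 2 with centred GC offsets (4.35%), 0 with centred GC offsets and the replicate block (1.04%), and 0 to 1 with each library left out (0 to 1.82%). The share of all genes called thus differed widely between these settings. With the replicate block the log2 fold change of Tnfaip3 was 1.04 (adjusted p 0.103 in edgeR). Deviations of same-numbered libraries correlated at -0.196, -0.092 and 0.063. No pairing by replicate number was seen in these values, which cannot exclude that such libraries were handled together. The uncentred offsets put the median of all genes at -0.24, so fold changes relative to it were 0.18 for Nfkb2, 0.01 for Rela and 0.19 for Nfkbie. As fitted, they reversed to -0.059 (Nfkb2), -0.22 (Rela) and -0.047 (Nfkbie), and with the block to -0.12, -0.25 and -0.043. Rela was also -0.0045 with centred offsets and the block, and -0.068 to 0.19 with each library left out. Of 180 fold changes of members under the alternatives, 167 kept their direction and side of the threshold, 10 reversed and 3 were weaker, all of Tnfaip3 (0.99, 0.85 and 0.86). Ratios to leukocyte markers reversed with the macrophage and monocyte list for Relb (-0.35), Nfkbia (-0.47), Nfkbie (-0.57) and Nfkbiz (-0.19), and with the pan-leukocyte list without Lcp1 for Relb (-0.087), Nfkbia (-0.21) and Nfkbie (-0.30). With each library left out they ranged from -0.23 to 0.057 for Nfkb2, -0.0015 to 0.45 for Relb, -0.12 to 0.097 for Rel, -0.092 to 0.29 for Nfkbia and -0.14 to 0.14 for Nfkbie. The centred offsets and the list without Lcp1 were chosen after seeing the data. The causes of these changes were not tested.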
